A study of Mus musculus with 24 samples.

Results

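In sorted mouse astrocytes, 10 imprinted genes were followed: Dlk1, Peg10, Peg3, Meg3, Plagl1, Cdkn1c, Ndn, Mest, Grb10 and Impact. They were chosen by name, with earlier results of these data known, as rows present in the tables of all 24 libraries. They make up 10 of the 24421 gene names. C57BL6 mice aged 20 weeks gave astrocytes, isolated by fluorescence sorting, from 4 regions: cortex, hippocampus, brainstem and olfactory bulb. Libraries labelled knockout came from NFIAfl/fl; Aldh1l1-CreER; Aldh1l1-GFP mice, and control libraries from NFIAfl/fl; Aldh1l1-GFP mice, so both genotypes carried the floxed NFIA alleles and the GFP reporter and differed in the Cre driver. The Aldh1l1 promoter, active in astrocytes, drives both the reporter and CreER, a recombinase that works once tamoxifen is given; its dosing is not given in the sources used here. There were 3 libraries in each of 8 groups of region and genotype, with no label saying which animals they came from, so p-values measure the spread between these libraries. The comparisons asked whether loss of NFIA, a nuclear factor I transcription factor, altered these genes in each region, and how their levels differed between regions in control astrocytes.

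An imprinted gene is expressed mainly from the copy inherited from the father or mainly from that inherited from the mother, depending on methylation marks set in the germ line. Imprinted genes lie in clusters, and many of them act on growth, placental and brain development. In mouse brain some leave the usual pattern, and Dlk1 is known for expression from both copies in neurogenic astrocytes. The tables here sum the reads of both copies, so the parental origin of each transcript was not measured.

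The promoter windows shown here belong to 4 genes that differed between regions below, and 3 of them hold the half-site of the nuclear factor I family, whose member NFIA was targeted. Each runs from 250 bases before to 50 bases after a RefSeq transcription start on GRCm38.p6, the assembly known as mm10, and is written 5′ to 3′ on the gene's strand. Capitals mark the half-site TTGGC on either strand (GCCAA on the strand shown).
Dlk1, chr12:109452573-109452872, plus strand: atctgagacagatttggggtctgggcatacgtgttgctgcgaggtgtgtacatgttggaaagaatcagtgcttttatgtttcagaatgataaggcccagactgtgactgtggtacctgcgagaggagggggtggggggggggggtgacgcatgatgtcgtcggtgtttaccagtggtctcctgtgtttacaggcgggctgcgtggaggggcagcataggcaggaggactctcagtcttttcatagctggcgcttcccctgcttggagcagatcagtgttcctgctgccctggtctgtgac
Meg3, chr12:109540746-109541045, plus strand: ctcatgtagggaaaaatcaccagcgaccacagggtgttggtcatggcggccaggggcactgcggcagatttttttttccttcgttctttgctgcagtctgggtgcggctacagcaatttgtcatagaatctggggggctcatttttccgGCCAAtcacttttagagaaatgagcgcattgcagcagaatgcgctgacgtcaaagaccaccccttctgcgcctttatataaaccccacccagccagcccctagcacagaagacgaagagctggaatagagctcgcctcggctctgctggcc
Peg3, chr7:6730370-6730669, minus strand: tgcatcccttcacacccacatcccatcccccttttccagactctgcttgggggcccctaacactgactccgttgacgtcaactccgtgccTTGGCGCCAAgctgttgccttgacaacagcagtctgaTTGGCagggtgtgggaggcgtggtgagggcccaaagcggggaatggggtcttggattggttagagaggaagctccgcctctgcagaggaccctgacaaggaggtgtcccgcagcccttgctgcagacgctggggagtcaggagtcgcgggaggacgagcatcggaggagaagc
Plagl1, chr10:13090582-13090881, plus strand: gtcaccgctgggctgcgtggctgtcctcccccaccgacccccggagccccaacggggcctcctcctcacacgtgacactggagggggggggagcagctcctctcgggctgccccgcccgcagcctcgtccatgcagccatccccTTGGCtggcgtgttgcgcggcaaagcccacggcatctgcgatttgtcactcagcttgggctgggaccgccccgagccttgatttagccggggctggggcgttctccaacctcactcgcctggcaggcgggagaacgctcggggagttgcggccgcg

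Promoter windows of 7 of the 10 genes were searched, 11 windows in all. The RefSeq set used held none for Peg10 and Cdkn1c, and Impact was left out of the search, so the matches below are for the 7 genes. The half-site occurred in 5 windows of 4 genes: Peg3, Meg3, Plagl1 and Grb10. Peg3 had 3 matches, of which 2 adjoin on opposite strands, at 160 and 155 bases before the start, and the other lies 123 bases before it. The Dlk1, Ndn and Mest windows held no such letters. A match of 5 bases is common: 46.7% of 32851 promoter windows of the table held one. The full site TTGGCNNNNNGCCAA occurred in 0.0365% of windows (12 windows), none of them among these genes. The consensus reported for Plagl1 protein, GGGGGGCCCC, searched on both strands, occurred in 0.0852% of windows (28 windows) and likewise in none of the 11. The windows differed in CpG content, with 26 CpG pairs in the Plagl1 window shown, 13 in those of Peg3 and Meg3 and 9 in that of Dlk1, against a median of 7 over the table. These are matches of letters and show no binding.

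Levels below are the authors' deposited values, reads divided by a size factor per library, and are called normalised reads. Comparisons of libraries labelled knockout with controls use them as deposited, including their average over regions and the F test of regional difference. Comparisons between control regions use the same reads rescaled over the 24 libraries, called the joint scale. This was done because the cortical libraries had been scaled apart from the others. Fold changes were fitted with limma on log2 of the value plus 5, so those of low genes are understated, and p is Benjamini-Hochberg adjusted over all genes tested, with 0.05 as the threshold for a call. Reads per library ranged from 1090777 in the brainstem library labelled knockout 3 to 24297573 in hippocampus. All 10 genes passed the filter on low values. In bulk samples, fewer cells of a type and less RNA per cell cannot be told apart.

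Nfia itself went against the genotype labels. It had 7476, 7932 and 8602 normalised reads in olfactory bulb libraries labelled knockout, against 4040, 4548 and 4996 in controls, and the libraries labelled knockout lay above the controls in all 4 regions. It was called in brainstem (log2 fold change 1.10, adjusted p = 0.00246 in limma) and hippocampus (0.96, adjusted p = 0.00327). The cortical difference of 0.72 (adjusted p = 0.0847) and that of olfactory bulb, 0.82 (adjusted p = 0.0674), did not pass. The tables count whole genes, so reads from the floxed exon could not be separated. Directions below are for libraries as labelled. All 10 astrocyte markers were detected in every group, and their sum lay between 99650 and 505200 normalised reads. Markers of choroid plexus, the epithelium that secretes cerebrospinal fluid, varied widely between libraries. The sum of its 8 markers was 3543 to 9369 in hippocampal libraries labelled knockout and 107500 to 223000 in hippocampal controls. In brainstem it was 8021 to 137700 in libraries labelled knockout and 76930 to 369400 in controls. In cortex the ranges were 869 to 9552 in libraries labelled knockout and 2607 to 75040 in controls, and in olfactory bulb 2539 to 3097 and 2547 to 3085 in the same groups.

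Between libraries labelled knockout and controls, limma made 1 call by region among the 10 genes, Cdkn1c in hippocampus. In hippocampus 1 of 10 was called, against 2.51% of all genes tested. In olfactory bulb limma called 0 of 10, against 0.0868% of all genes; 2 had an unadjusted p under 0.05, edgeR called 0 and DESeq2 called 1. In cortex limma called 0 of 10, against 0.324%; 0 had an unadjusted p under 0.05, and edgeR and DESeq2 called 0. In brainstem limma called 0 of 10, against 0.773%; 4 had an unadjusted p under 0.05, edgeR called 0 and DESeq2 called 2. For the average of the regions limma called 0 of 10, against 5.88%; 5 had an unadjusted p under 0.05, edgeR called 1 and DESeq2 called 2. The F test of whether the effect differed among regions called 0 of 10, against 0.0552%. In it 4 had an unadjusted p under 0.05, edgeR called 0 and DESeq2 called 2. All these percentages are those of limma. Over all genes DESeq2 called 638 in hippocampus, 166 in brainstem, 1001 in the average and 86 in the F test. Limma called 318, 98, 745 and 7 there. The median log2 fold change over the 10 genes was -0.94 in brainstem, 0.18 in hippocampus and 0.29 in both olfactory bulb and cortex, where the median over all genes tested lay between -0.01 and 0.00 in each region. The brainstem median includes Dlk1 at -1.91, where knockout library 3 had 0 reads. Without brainstem control library 1 the brainstem log2 fold changes of Peg10, Plagl1, Mest and Grb10 were -0.54, -0.79, -0.53 and -0.19.

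**Figure D1:**
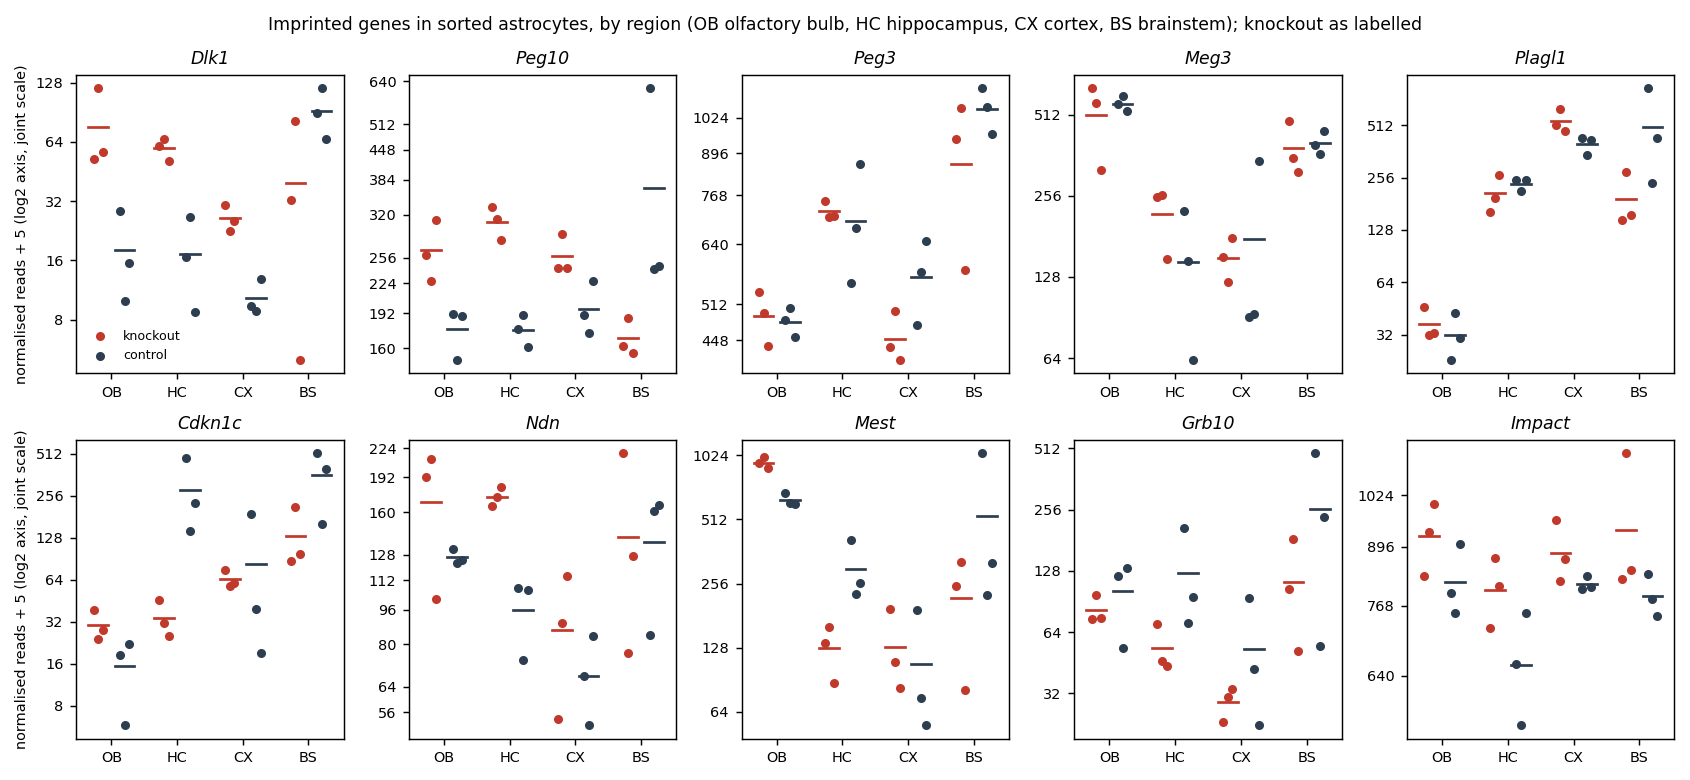
Normalised reads plus 5 of each gene in every library, on the joint scale and a log2 axis, for libraries labelled knockout (red, left) and controls (dark, right) in 4 regions; points are libraries and lines are means. Plagl1 is lowest in olfactory bulb and Dlk1 is highest in brainstem among controls, and Cdkn1c in hippocampus shows separate genotypes.

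Dlk1 encodes a transmembrane protein of the Delta and Notch family that restrains differentiation, and is expressed from the paternal copy in most tissues. It lies on mouse chromosome 12, at 109452823 to 109463336 on the plus strand of mm10. In olfactory bulb it had 46.9, 113 and 51.4 normalised reads in libraries labelled knockout, against 23.2, 4.84 and 10.4 in controls. In hippocampus the values were 55.3, 60.8 and 45.9 in libraries labelled knockout and 11.5, 21.4 and 3.72 in controls. In cortex they were 19.9, 13.8 and 15.9 in libraries labelled knockout and 3.43, 2.98 and 6.09 in controls. In each of these 3 regions the libraries labelled knockout all lay above the controls, at 5.50, 4.43 and 3.96 times the control mean. These ratios rest on few control reads: 21, 6 and 19 in olfactory bulb, 18, 23 and 10 in hippocampus and 4, 3 and 5 in cortex. The cortical libraries labelled knockout had 24, 9 and 22 reads. None of the 3 differences passed the test, with log2 fold changes of 2.11 ± 0.63, 1.91 ± 0.63 and 1.24 ± 0.63 (SE) and adjusted p of 0.351, 0.114 and 0.891 in limma. DESeq2 on recovered reads gave 0.0297 in olfactory bulb and 0.0164 in hippocampus, and limma on the libraries of a region alone gave 0.0481 and 0.0427. The hippocampal difference was also called in limma-voom (0.0474) and without brainstem knockout library 2 (0.0485) or 3 (0.0197), which enter the shared estimate of spread; without a hippocampal library the adjusted p ran up to 0.307.

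Brainstem showed another order for Dlk1. It had 27.1, 75.5 and 0 normalised reads in libraries labelled knockout, against 83.5, 114 and 60.4 in controls. The groups overlap, since knockout library 2 lies above control library 3. The 0 came from the shallowest library, in which 3 reads would equal 17.2 normalised reads, so lower levels were not detectable there. The fit took the 0 as deposited, so its log2 fold change is no measured size: it was -1.91 ± 0.63 (SE, adjusted p = 0.142 in limma), and -0.80 without that library (adjusted p = 0.536). Without knockout library 2 it was -2.80 (adjusted p = 0.0221). The F test of a regional difference in the effect gave Dlk1 an adjusted p of 0.141 in limma, 0.0305 in DESeq2 and 0.0306 without brainstem knockout library 2, and ran up to 0.247 with another library left out. Averaged over the regions the log2 fold change was 0.84 ± 0.32 (SE, adjusted p = 0.125 in limma, 0.0186 in edgeR and 0.00174 in DESeq2), and the average was called in limma without brainstem knockout library 3 (1.12, adjusted p = 0.00555).

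Meg3 is a long noncoding RNA of the same cluster as Dlk1, expressed from the maternal copy. It lies at 109541001 to 109571726 on the plus strand of chromosome 12, and its exons overlap those of Gm26906, Gm27300, Mir770 and Mir1906-1, so reads cannot be assigned to Meg3 alone. In hippocampus it had 245, 249 and 143 normalised reads in libraries labelled knockout and 218, 140 and 57.3 in controls. In cortex the values were 114, 91.9 and 136 in libraries labelled knockout and 66.9, 68.6 and 263 in controls. The groups overlap in all 4 regions, and its log2 fold changes ran between -0.20 and 0.74 with adjusted p of 0.508 or higher in limma. Rian, a further maternally expressed RNA of this cluster, was likewise not called in any region, with 149 ± 39.6 normalised reads in hippocampal libraries labelled knockout and 157 ± 93.2 in controls (SD, n = 3 each).

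Peg10 derives from a retrotransposon, makes Gag-like and Pol-like proteins and is needed for the placenta in mice. It lies at 4747306 to 4760517 on the plus strand of chromosome 6, beside Sgce, which is transcribed away from it. In hippocampus it had 324, 304 and 273 normalised reads in libraries labelled knockout, against 170, 182 and 154 in controls. In olfactory bulb the values were 251, 220 and 302 in libraries labelled knockout and 184, 144 and 181 in controls. In cortex they were 185, 222 and 186 in libraries labelled knockout and 144, 130 and 172 in controls. The libraries labelled knockout were higher than every control in these 3 regions. Brainstem had the opposite order, with 155, 180 and 149 normalised reads in libraries labelled knockout and 606, 234 and 237 in controls, and again no overlap. Limma called none of these: the log2 fold changes were 0.81 ± 0.25 in hippocampus (SE, adjusted p = 0.0825), 0.59 ± 0.25 in olfactory bulb (0.865), 0.40 ± 0.25 in cortex (0.982) and -0.98 ± 0.25 in brainstem (0.0560).

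Peg10 lay close to the threshold in brainstem and its call depended on the settings. The brainstem difference was called with 20 added before the log (adjusted p = 0.0486), with a higher filter on low values (0.0459), in DESeq2 (0.00683), and without control library 2 (0.00493), control library 3 (0.0437) or knockout library 2 (0.0471). Over the other alternatives the adjusted p reached 0.738. Without control library 1, the highest for Peg10, the log2 fold change was -0.54 (adjusted p = 0.405). Among brainstem controls that library had the highest choroid plexus sum (369400) and fibroblast sum (3212) and the lowest astrocyte sum (99650), and their part in the difference was not tested. The hippocampal difference was called in DESeq2 (0.0414), with hippocampal libraries alone (0.0361) and without brainstem control library 1 (0.0132) or 2 (0.0488), and reached 0.216 without hippocampal control library 1. The F test of a regional difference in the effect gave an adjusted p of 0.0598 in limma and 0.000886 in DESeq2, the smallest of the 10 genes in both; in limma it was 0.0112 without brainstem control library 2 and 0.0475 without cortical control library 1, and reached 0.139 without brainstem knockout library 3. Sgce, which shares the Peg10 promoter region, averaged 116 ± 6.64 normalised reads in hippocampal libraries labelled knockout and 161 ± 12.3 in controls (SD, n = 3 each). In brainstem it averaged 186 ± 43.2 in libraries labelled knockout and 126 ± 53.3 in controls, and limma did not call it in any region.

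Peg3 encodes a zinc finger protein expressed from the paternal copy, and lies at 6703892 to 6730431 on the minus strand of chromosome 7. In hippocampus it had 736, 695 and 698 normalised reads in libraries labelled knockout and 542, 667 and 845 in controls. In brainstem it had 929, 1040 and 569 in libraries labelled knockout and 1125, 1047 and 949 in controls. Its groups overlap in every region, and the log2 fold changes ran between -0.34 and 0.07 with adjusted p of 0.392 or higher in limma. The SE of each difference was 0.18 on the log2 scale, where that of Impact was 0.15 and those of the other genes were 0.25 or more. Usp29 and Zim1, its neighbours in the cluster, were low, with means of 8.22 to 33.2 and 7.52 to 26.7 normalised reads in libraries labelled knockout and 9.56 to 22.2 and 14.0 to 28.01 in controls.

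Plagl1 encodes a zinc finger transcription factor that acts on other imprinted genes and on cell cycle arrest. Its gene is at 13060504 to 13131694 on the plus strand of chromosome 10, and its exons overlap Gm27741. In brainstem it had 139, 267 and 149 normalised reads in libraries labelled knockout and 823, 230 and 420 in controls. In cortex it had 397, 490 and 368 in libraries labelled knockout and 333, 264 and 321 in controls, without overlap. The brainstem groups overlap, as knockout library 2 lies above control library 2. The log2 fold change was -1.26 ± 0.32 in brainstem (SE, adjusted p = 0.0613 in limma) and 0.44 ± 0.32 in cortex (adjusted p = 0.999). The brainstem difference was called with 20 added before the log (adjusted p = 0.0453), in DESeq2 (0.00645), in limma-voom (0.0390), and without control library 2 (0.00118) or knockout library 2 (0.0243). Without control library 1, which stands apart in the marker sums given for Peg10, the log2 fold change was -0.79 (adjusted p = 0.393). The F test of a regional difference in the effect gave 0.355, with 0.0235 without brainstem control library 2 and 0.645 without brainstem control library 1.

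Cdkn1c encodes p57, an inhibitor of cyclin-dependent kinases that stops the cell cycle, expressed from the maternal copy. It lies at 143458339 to 143461050 on the minus strand of chromosome 7, and its exons overlap Gm44732. In hippocampus it had 40.7, 26.2 and 20.1 normalised reads in libraries labelled knockout, against 464, 137 and 219 in controls. Every library labelled knockout lay below every control. The mean fell to 0.106 times that of controls, and the fitted log2 difference was -2.90 (SE 0.64; adjusted p = 0.0158 in limma). The call held in all 11 alternatives other than leaving out libraries, with adjusted p between 0.00181 and 0.0482. It was lost without hippocampal control library 1 (adjusted p = 0.114), knockout library 2 (0.0674) or knockout library 3 (0.0948). Over the alternatives and the 6 fits without a hippocampal library the log2 fold change ran between -3.30 and -2.44.

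In brainstem Cdkn1c had 81.2, 204 and 91.9 normalised reads in libraries labelled knockout and 505, 154.5 and 392.5 in controls. In cortex it had 54.7, 41.3 and 44.0 in libraries labelled knockout and 144, 26.8 and 10.97 in controls. In olfactory bulb, where it was lowest, it had 33.6, 18.8 and 22.6 in libraries labelled knockout and 13.3, 0.807 and 16.9 in controls, and the 0.807 rests on 1 read. The groups overlap in brainstem and cortex, while in olfactory bulb the libraries labelled knockout lay above the controls. The limma test called none of the 3, with adjusted p of 0.306, 1 and 1. The F test of a regional difference in the effect gave 0.216, with 0.0152 without cortical control library 1 and 0.416 without hippocampal knockout library 3.

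Choroid plexus and ependymal transcripts differed between the same libraries. In hippocampus 5 of 8 choroid plexus markers and 3 of 5 tested ependymal markers were called lower in libraries labelled knockout. Of all 12673 genes tested, 227 were called lower there. The ependymal sum was 19.5 to 42.1 normalised reads in hippocampal libraries labelled knockout and 200.1 to 230.8 in controls. Cortical control library 1, with the highest cortical Cdkn1c, had a choroid plexus sum of 75040, against 6547 and 2607 in the other 2 controls. On the joint scale the choroid plexus sum in olfactory bulb was 2570 to 3140 in libraries labelled knockout and 2580 to 3124 in controls. In cortex it was 1113 to 12240 in libraries labelled knockout and 3364 to 96220 in controls. Joint means of Cdkn1c were 25.3 and 10.5 normalised reads in the same olfactory bulb groups, and 59.8 and 77.8 in those of cortex. Of the 8 markers Folr1 was at 0 in both olfactory bulb groups and Prlr in the libraries labelled knockout, while the rest were detected. The part of these cells in the hippocampal difference was not tested.

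**Figure D2:**
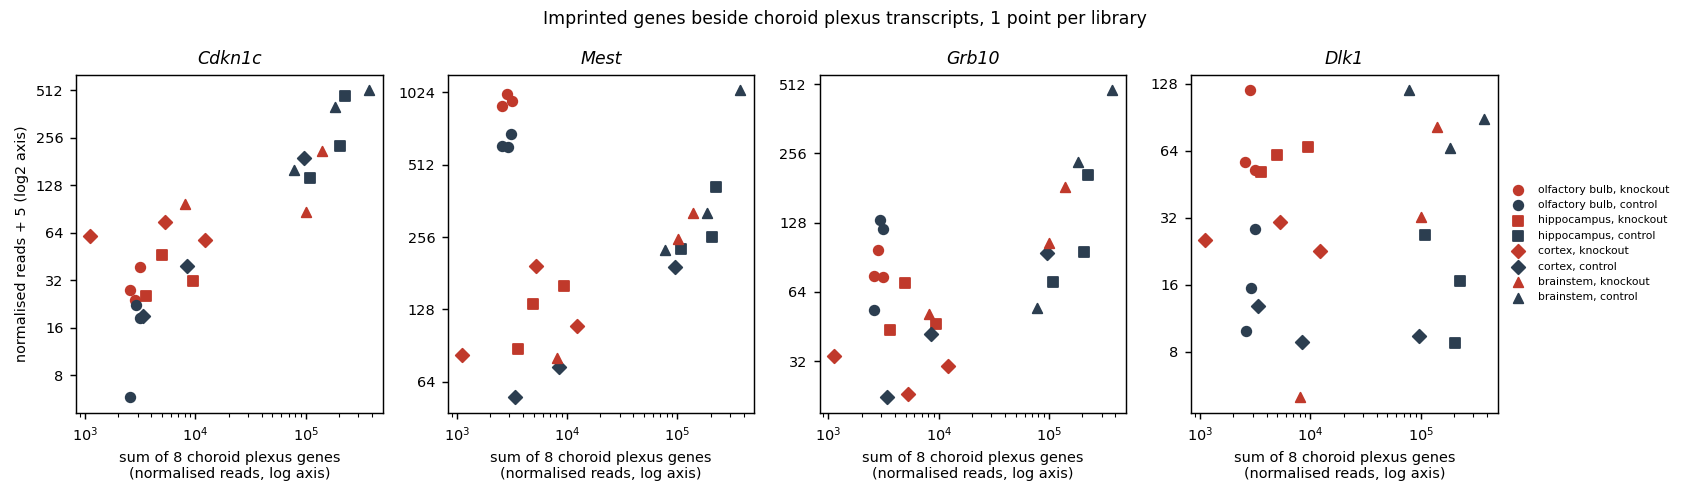
Normalised reads plus 5 of 4 genes (log2 axis) against the sum of 8 choroid plexus markers (log axis), both on the joint scale, 1 point per library, with libraries labelled knockout in red and controls in dark; shapes are regions. For Cdkn1c the hippocampal libraries labelled knockout lie at 20.3 to 41.2 normalised reads and the hippocampal controls at 139 to 470, at higher choroid plexus sums.

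Mest and Grb10 act on growth. Mest encodes a hydrolase-like protein expressed from the paternal copy, at 30723547 to 30748465 on the plus strand of chromosome 6, and its exons overlap those of Copg2, which could share its reads. In hippocampus Mest had 128, 153 and 81.6 normalised reads in libraries labelled knockout, against 402, 221 and 249 in controls. In olfactory bulb it had 922, 990 and 878 in libraries labelled knockout and 669, 598 and 592 in controls. The groups do not overlap in either region and are ordered in opposite ways. Neither difference passed the test, with log2 fold changes of -1.22 ± 0.57 (SE, adjusted p = 0.352 in limma) and 0.58 ± 0.57 (adjusted p = 1). With the hippocampal libraries alone the adjusted p was 0.0345, and without hippocampal control library 1 it was 0.693. Copg2 averaged 447 ± 116 normalised reads in hippocampal libraries labelled knockout and 411 ± 107 in controls (SD, n = 3 each).

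Grb10 encodes an adaptor that inhibits insulin and IGF receptor signalling, expressed from the maternal copy in most tissues and from the paternal copy in neurons. It lies at 11930508 to 12038683 on the minus strand of chromosome 11. In hippocampus it had 64.1, 40.7 and 38.1 normalised reads in libraries labelled knockout and 200, 65.2 and 89.3 in controls. In brainstem it had 98.0, 175 and 46.0 in libraries labelled knockout and 473, 48.8 and 229 in controls. The 46.0 rests on 8 reads, in the shallowest library. The hippocampal groups were separate by a small margin, and the brainstem groups overlap. The log2 fold changes were -1.10 ± 0.63 in hippocampus and -0.89 ± 0.63 in brainstem (SE, adjusted p = 0.476 and 0.535 in limma), and -0.70 ± 0.31 for the average of the regions (adjusted p = 0.222, and 0.0211 in DESeq2). Without brainstem control library 2 limma called it in brainstem (-1.77, adjusted p = 0.0479) and in the average (-0.92, adjusted p = 0.0181). Without control library 1, at 473, the brainstem log2 fold change was -0.19 (adjusted p = 0.954) and the average -0.53 (adjusted p up to 0.356 over the fits that left out a library). Brainstem control library 1 was the highest of its group for Mest, at 1030, and for Grb10, and also for the choroid plexus sum and the fibroblast marker sum (3212, with 649 as the lowest control). The part of those cells was not tested.

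Ndn encodes necdin, a MAGE family protein expressed from the paternal copy that promotes the survival and differentiation of neurons. It lies at 62346569 to 62350262 on the plus strand of chromosome 7. In hippocampus it had 158, 166 and 175 normalised reads in libraries labelled knockout, against 101.4, 67.9 and 100.1 in controls, with no overlap. The log2 fold change was 0.88 ± 0.35 (SE, adjusted p = 0.222 in limma). In the other 3 regions its groups overlap and its log2 fold changes ran between -0.03 and 0.34. In its cluster Magel2 and Snrpn were counted near 0 in every group, at group means of at most 1.03 and 1.254 normalised reads in libraries labelled knockout and 0.678 and 5.88 in controls. Snurf lies within the span of Snrpn on the same strand, and whether shared exons lowered the Snrpn count was not tested. Ube3a averaged 709 ± 65.5 in hippocampal libraries labelled knockout and 757 ± 6.97 in controls (SD, n = 3 each).

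Impact, which restrains the kinase GCN2 and so acts on translation, was the steadiest of the 10 genes. It is on chromosome 18, at 12955852 to 12992950 on the plus strand. It averaged 904 ± 84.8, 786 ± 72.5, 684 ± 54.6 and 919 ± 176 normalised reads in libraries labelled knockout of olfactory bulb, hippocampus, cortex and brainstem (SD, n = 3 each). The means were 801 ± 74.2, 646 ± 94.2, 628 ± 11.2 and 775 ± 43.2 in the controls of the same regions. The groups overlap in all 4 regions. The mean was higher in libraries labelled knockout in each, by 0.12 to 0.29 on the log2 scale with an SE of 0.15, and the average of 0.20 ± 0.07 did not pass (adjusted p = 0.110 in limma).

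Groups without overlap were counted over all genes as a background. In olfactory bulb 4 of the 10 genes lay wholly above and 0 wholly below the controls, where 7.19% and 6.87% of the 12673 genes tested did so. In hippocampus 3 lay above and 3 below, against 9.76% and 10.4%. In cortex 3 lay above and 0 below, against 7.23% and 7.21%. In brainstem 0 lay above and 1 below, against 5.41% and 5.65%.

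**Figure D3:**
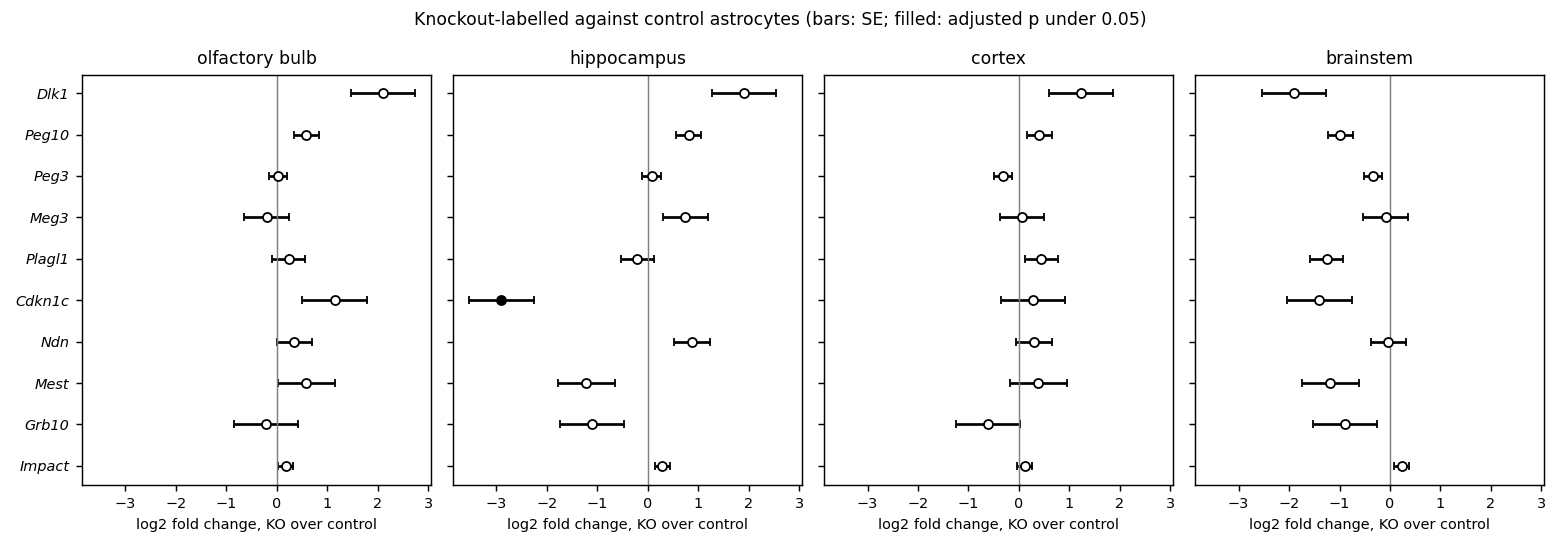
Log2 fold change of each gene, libraries labelled knockout over controls, in each region, with bars of 1 SE; filled points have an adjusted p under 0.05 in limma. Cdkn1c in hippocampus is the filled point, at -2.90, and Dlk1 lies at 2.11, 1.91 and 1.24 in olfactory bulb, hippocampus and cortex and at -1.91 in brainstem. The brainstem value of Dlk1 includes a library at 0 reads.

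Other imprinted genes were described from lists of 24 further paternally expressed and 32 further maternally expressed genes, of which 14 and 20 were tested. In hippocampus 1 of the 14 and 1 of the 20 were called, beside the 2.51% of all genes given above. Both were lower in libraries labelled knockout, where 227 of the 12673 genes tested were called lower and 91 higher. Igf2, a growth factor of the paternal copy, averaged 286 ± 71.7 normalised reads in hippocampal libraries labelled knockout and 2518 ± 891 in controls (SD, n = 3 each; log2 fold change -3.09, adjusted p = 0.0142 in limma). Its call was lost without hippocampal control library 1 (adjusted p = 0.0920) or knockout library 3 (0.0789). Cobl, an actin nucleator beside Grb10, averaged 29.1 ± 16.4 in libraries labelled knockout and 76.8 ± 15.04 in controls (-1.35, adjusted p = 0.0415), and was called in 7 of 11 alternatives and in 1 of the 6 fits that left out a hippocampal library, the one without knockout library 2; in the other 5 the adjusted p was 0.0506 to 0.193. The choroid plexus sum given above was also lower in hippocampal libraries labelled knockout, and the part of those cells in the Igf2 difference was not tested.

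In olfactory bulb, cortex and brainstem limma called 0 of the 14 paternally expressed genes, where 1, 0 and 3 had an unadjusted p under 0.05, and edgeR and DESeq2 called 0. It called 0 of the 20 maternally expressed genes there, where 2, 3 and 4 had an unadjusted p under 0.05; edgeR and DESeq2 called 0 and limma-voom called 1, in cortex. Averaged over the regions 1 of 14 and 2 of 20 were called, against 5.88% of all genes. These were Igf2 (log2 fold change -1.44, adjusted p = 0.0113), Cobl (-0.71, adjusted p = 0.0177) and Slc22a18, a transporter of the Cdkn1c cluster (1.07, adjusted p = 0.0269 in limma). Slc22a18 averaged 77.4 ± 46.0 normalised reads in olfactory bulb libraries labelled knockout and 16.9 ± 9.96 in controls, and 27.3 ± 2.86 and 3.75 ± 3.72 in cortex (SD, n = 3 each). It was called in 5 of 9 alternatives with adjusted p up to 0.109, and in 16 of 24 fits that left out a library. It was lost, at adjusted p up to 0.0643, without olfactory bulb control library 1 or 2 or knockout library 2 or 3, hippocampal control library 1 or knockout library 1, cortical control library 1 or brainstem knockout library 3. Of 10 genes that set or keep imprints, among them Dnmt1 and Trim28, 6 were tested; limma, edgeR and DESeq2 called 0 in any region, and 1 had an unadjusted p under 0.05 in brainstem and 0 in the others.

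**Figure D4:**
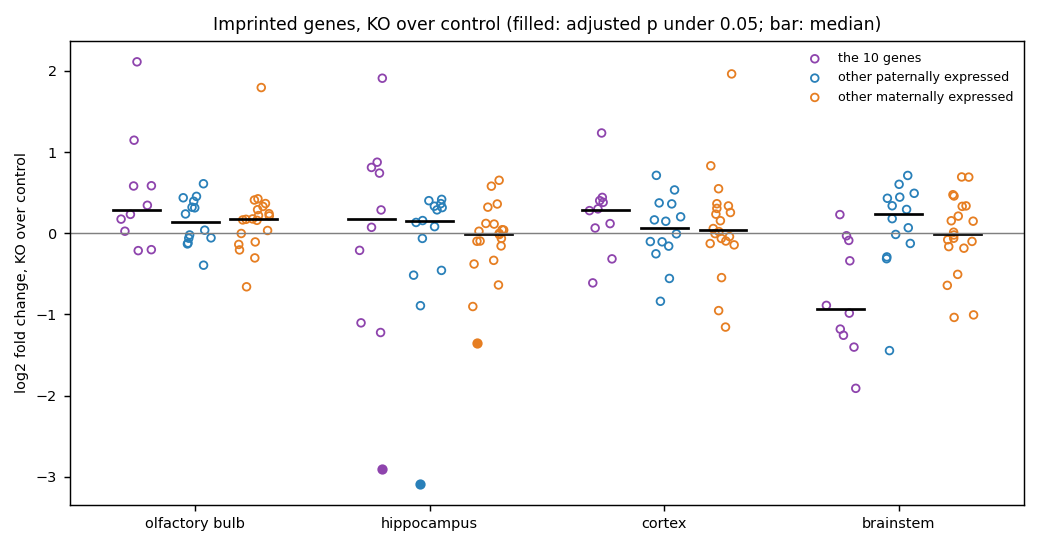
Log2 fold change, libraries labelled knockout over controls, for the 10 genes and for the tested genes of 2 further imprinted lists, by region; bars are medians and filled points have an adjusted p under 0.05 in limma. The median of the 10 genes is -0.94 in brainstem, where those of the lists are 0.24 and 0.00. The brainstem median of the 10 genes includes Dlk1, which had 0 reads in knockout library 3.

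Control astrocytes differed between regions in 7 of the 10 genes by an F test, where 23.4% of all genes tested differed. These were Dlk1, Peg10, Peg3, Meg3, Plagl1, Cdkn1c and Mest, with adjusted p between 5.54e-10 for Plagl1 and 0.0139 for Peg10 in limma. Ndn (adjusted p = 0.111), Grb10 (0.105) and Impact (0.287) did not pass. Grb10 was called in edgeR (0.0264), DESeq2 (0.00460) and limma-voom (0.0136), and without brainstem control library 2 (0.00194) or cortical control library 1 (0.0339); without cortical control library 3 it was 0.363. The Peg10 result was lost with control libraries alone (0.0738) and without brainstem control library 1 (0.313). Per kilobase of exon the highest mean over the 4 control regions was that of Impact, at 149 normalised reads per kilobase on the joint scale. The order differed by region: in brainstem Cdkn1c had 174 and Impact 153, and in olfactory bulb Mest had 159, Impact 158 and Cdkn1c 5.14. Over the 4 regions Mest averaged 98.2, Cdkn1c 88.2, Peg3 52.2, Plagl1 36.7, Peg10 33.6, Ndn 27.6, Meg3 17.5, Grb10 14.2 and Dlk1 5.20 normalised reads per kilobase.

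Plagl1 was lowest in olfactory bulb. On the joint scale its control libraries had 17.9, 37.6 and 25.5 normalised reads in olfactory bulb. They had 243, 208 and 242 in hippocampus, 426, 341 and 414 in cortex and 832, 232 and 425 in brainstem. Every olfactory bulb control lay below every control of the other regions. Its log2 difference was -2.92 ± 0.32 against hippocampus, -3.68 ± 0.32 against cortex and -3.83 ± 0.32 against brainstem (SE, adjusted p = 2.38e-07, 5.55e-09 and 7.67e-10 in limma). All 3 calls held in every alternative and with each library left out. Brainstem and cortex (adjusted p = 0.827) and cortex and hippocampus (0.306) did not pass. Hippocampus against brainstem (0.0952) was called in edgeR (0.0339), DESeq2 (0.0138), limma-voom (0.0287) and without brainstem control library 2 (0.00422). Its log2 difference of -0.90 was -0.44 without brainstem control library 1 (adjusted p = 0.544).

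Cdkn1c was also lowest in olfactory bulb controls, at a joint mean of 10.5 normalised reads, against 354.5 in brainstem, 277 in hippocampus and 77.8 in cortex. The log2 differences of olfactory bulb were -4.59 ± 0.65 against brainstem and -4.22 ± 0.65 against hippocampus (SE, adjusted p = 2.13e-05 and 0.000112 in limma), and held in every alternative. Against cortex it was -1.97 (adjusted p = 0.0666), which was called in 5 of 10 alternatives and without cortical control library 3 (0.00902), and was -1.04 without cortical control library 1 (0.355). Brainstem and hippocampus (adjusted p = 0.849) and hippocampus and cortex (0.0990) did not pass, while the brainstem mean was above that of cortex (log2 difference 2.62, adjusted p = 0.00773). Hippocampus against cortex was called with the replicate block (0.0368) and without cortical control library 1 (0.00263), and reached 0.434 without cortical control library 3. The brainstem call against cortex was lost with control libraries alone (0.066) and without brainstem control library 1 (0.0527) or cortical control library 3 (0.0605). In controls 7 of 8 choroid plexus markers were likewise called lower in olfactory bulb than in brainstem and in hippocampus. Of all 12787 genes tested, 1171 and 587 were called lower in these 2 comparisons. The part of choroid plexus in the Cdkn1c differences was not tested.

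Dlk1, Peg10 and Peg3 were highest in brainstem controls. Dlk1 had 84.4, 115 and 61.0 normalised reads there on the joint scale, against 23.5, 4.91 and 10.5 in olfactory bulb, 11.6, 21.7 and 3.77 in hippocampus and 4.40, 3.84 and 7.86 in cortex. Brainstem did not overlap any other region, and the other 3 regions overlap each other. The log2 difference of brainstem was 3.12 ± 0.64 against cortex (SE, adjusted p = 0.000910 in limma). Those of hippocampus and olfactory bulb against brainstem were -2.50 ± 0.64 (adjusted p = 0.0115) and -2.45 ± 0.64 (adjusted p = 0.00624). The hippocampal one was lost with 1 added before the log (0.0648) and without hippocampal control library 3 (0.0875).

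Peg3 had joint means of 1052 ± 89.5 normalised reads in brainstem, 693 ± 155 in hippocampus, 561 ± 87.3 in cortex and 475 ± 26.1 in olfactory bulb (SD, n = 3 each). Brainstem was above cortex by 0.91 ± 0.19 on the log2 scale (SE, adjusted p = 0.000883 in limma), and olfactory bulb below brainstem by a log2 difference of -1.14 (adjusted p = 4.29e-05). The difference of hippocampus against brainstem, -0.62 (adjusted p = 0.0366), was lost in 4 of 10 alternatives and in 5 of the 6 fits without a control library of either region, where it held without hippocampal control library 3. Peg10 had joint means of 363 in brainstem, 191 in cortex, 172 in olfactory bulb and 171 in hippocampus. Brainstem control library 1, at 612, was above the other 2 (236 and 240). Without it the differences of Peg10 from brainstem were not called: adjusted p was 0.155 for olfactory bulb, 0.246 for hippocampus and 0.425 for cortex, where with it they were 0.00856, 0.0185 and 0.0351. The cortical one was also lost with no filter (0.0593), in limma-voom (0.075), with control libraries alone (0.0991) and without cortical control library 1 (0.0801) or 2 (0.143). The hippocampal one was also lost in limma-voom (0.0751), with control libraries alone (0.080) and without hippocampal control library 3 (0.0784). That of olfactory bulb was also lost without olfactory bulb control library 2 (0.0512).

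Meg3 and Mest had their highest control means in olfactory bulb, but neither differed past the test from brainstem (log2 differences of 0.49, adjusted p = 0.519, and 0.58, adjusted p = 0.556 in limma). Meg3 had 554, 594 and 521 normalised reads in olfactory bulb on the joint scale, 388, 362 and 440 in brainstem, 221, 141 and 58.0 in hippocampus and 85.8, 88.4 and 340 in cortex. Olfactory bulb was above hippocampus by 2.14 ± 0.45 and above cortex by 1.97 ± 0.45 on the log2 scale (SE, adjusted p = 0.00283 and 0.00606 in limma), and both held with each library left out. The joint sum of 12 neuron markers in controls was 2312 to 4015 in olfactory bulb and 3235 to 4183 in brainstem. It was 1482 to 2741 in hippocampus and 2104 to 3395 in cortex. That of 9 neuroblast markers was 881 to 1292 in olfactory bulb, 122 to 294 in brainstem, 163 to 181 in hippocampus and 219 to 475 in cortex. The part of these cells in the Meg3 differences was not tested. The calls of hippocampus against brainstem (-1.65, adjusted p = 0.0250) and brainstem against cortex (1.49, adjusted p = 0.0271) were each lost in 4 or more fits that left out a control library, with adjusted p up to 0.142 and 0.144. Mest had joint means of 628 in olfactory bulb, 525.5 in brainstem, 294 in hippocampus and 102 in cortex, and the highest single control was in brainstem, at 1041. With the replicate block hippocampus was above cortex (adjusted p = 0.0480, against 0.198 without it). Olfactory bulb was above cortex by 2.78 ± 0.57 (SE, adjusted p = 0.00367), in every alternative, and brainstem above cortex by 2.20 (adjusted p = 0.0132), which was lost without brainstem control library 1 (0.0837) or cortical control library 2 (0.0611) or 3 (0.0764).

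Counted by pair of regions, 3 of 10 genes were called between olfactory bulb and hippocampus (10% of all genes), 3 between olfactory bulb and cortex (8.53%) and 5 between olfactory bulb and brainstem (19.5%). Between hippocampus and brainstem 4 were called (7.56%) and between brainstem and cortex 7 (15.2%). All 7 were higher in brainstem, where 868 of the 12787 genes tested were called higher and 1080 lower. Between hippocampus and cortex limma called 0 of 10 (1.19% of all genes), where 5 had an unadjusted p under 0.05 and edgeR and DESeq2 called 0. Grb10 was the only further gene in the 7, at a log2 difference of 2.04 between brainstem and cortex (adjusted p = 0.0305). Its call was lost with control libraries alone (0.123) and without brainstem control library 1 (0.195) or 3 (0.106) or cortical control library 2 (0.0953) or 3 (0.170). Between brainstem and cortex controls 3 of 8 choroid plexus and 4 of 5 ependymal markers were also called higher in brainstem. So were 3 of 7 fibroblast and 3 of 8 oligodendrocyte markers, beside the 868 of all genes given above. The part of these cells was not tested. Impact did not differ past the test in any pair; its joint means were 811 in olfactory bulb, 808 in cortex, 783 in brainstem and 654 in hippocampus.

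Among the other imprinted genes, 3 of 14 paternally expressed and 4 of 20 maternally expressed ones differed among control regions, beside the 23.4% of all genes. They were Igf2, Zdbf2 and Peg13, and Cobl, Pon3, Pon2 and Igf2r. Cobl was lower in olfactory bulb controls than in brainstem (log2 difference -2.56, adjusted p = 6.44e-06 in limma) and than in cortex (-2.41, adjusted p = 3.22e-05). Zdbf2 averaged 238 normalised reads in brainstem, 99.4 in hippocampus, 63.3 in olfactory bulb and 60.6 in cortex on the joint scale, and brainstem was above cortex by 1.86 (adjusted p = 0.000232). Pon3, of the Peg10 cluster, was lower in olfactory bulb than in brainstem (-2.51, adjusted p = 9.95e-06).

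The tested genes whose gene-centred log2 levels lay nearest to each gene over the 24 libraries were found by root mean square difference. Unnamed gene models (such as Gm and Rik names), repeated names and names turned into dates were skipped, so ranks are among the remaining genes. Kcnq1ot1, a paternally expressed noncoding RNA of the Cdkn1c cluster, was the second nearest to Meg3 at 0.52, after Snhg11 at 0.47. The nearest to Impact was Dld at 0.14, to Peg3 Nsf at 0.28, to Peg10 Med14 at 0.33, to Ndn Ocrl at 0.39 and to Mest Zfhx4 at 0.55, all in log2 units. Angptl2 was nearest to Cdkn1c at 0.65, Ptpn3 to Grb10 at 0.59, Rph3a to Plagl1 at 0.78 and Ppm1h to Dlk1 at 1.01. The gene's own SD over the libraries was 1.32 for Dlk1, 1.55 for Plagl1 and 1.68 for Cdkn1c. The libraries share region, depth and genotype, and these distances are a description.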

How the data were processed

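Per the labels' protocols, RNeasy Micro columns gave the RNA, and the NuGEN Trio RNA-Seq system made the libraries, each with a 5 ng input. Per the submitters' processing notes, FastQC, STAR 2.5.0a, DESeq2 1.20.0 and mm10 were used; the counting tool, annotation and strand setting are not given in the sources used here. Signal values as deposited by the authors are per gene and library. When checked, 100% of them lay within 0.01 read of whole reads over a library's own factor, so reads could be recovered. Depth was 4503269 to 9425474 reads in olfactory bulb, 5543804 to 24297573 in hippocampus, 3287872 to 7179349 in cortex and 1090777 to 5552215 in brainstem.

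The 10 genes and all lists were chosen with earlier results of these data known. Testing kept genes that reached 20 in 3 or more libraries: 12673 as deposited and 12787 on the joint scale, which used median-of-ratios factors over all 24 libraries. In R 4.3.3, limma 3.58.1 modelled log2(value + 5) by group means, with intensity trend and robust moderation, with 16 residual degrees of freedom; tests were two-sided. A floor of 3 reads states what a count of 0 allows; the fits took 0 as deposited. Alternatives were other constants (1 and 20), filters (none, and 100), edgeR 4.0.16, DESeq2 1.42.0 and limma-voom on recovered reads, the replicate block, a joint scale, a region or the controls alone, and each library left out. The fits were tested on simulated data. Named genes were the 10 genes, Nfia, called genes of the imprinted lists, cluster neighbours and nearest genes. Exon positions and lengths come from GENCODE vM21, and promoters from RefSeq (GRCm38.p6); 23350 of the gene names matched GENCODE. No sequence of Impact is shown.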

Additional observations from a re-analysis of the deposited data

Results flagged for a closer look

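In 3 of the 10 genes every library labelled knockout lay above the controls in 1 or more regions and below them in another. In single regions 5.41% to 10.4% of all genes tested lay wholly above, or wholly below, the controls. The share of all genes above in a region and below in another was not counted, so the 3 have no background. Peg10 was above in olfactory bulb, hippocampus and cortex and below in brainstem, and the F test of a regional difference gave an adjusted p of 0.0598 in limma. Cdkn1c was above in olfactory bulb and below in hippocampus, with an adjusted p of 0.216. Mest was above in olfactory bulb and below in hippocampus, with an adjusted p of 0.710. The difference between single pairs of regions was not tested. With 3 libraries a group, no search for single outlying libraries was made.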

How the results depend on the processing

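The count of the 10 genes called depended on the tool. Between libraries labelled knockout and controls, DESeq2 called 1 in olfactory bulb, 3 in hippocampus, 2 in brainstem, 2 in the average and 2 in the F test of regional difference, where limma called 0, 1, 0, 0 and 0. Over all genes DESeq2 also called more than limma, with 638 against 318 in hippocampus and 166 against 98 in brainstem. It called 1001 against 745 in the average and 86 against 7 in the F test. Limma-voom called 2 in hippocampus and 1 in brainstem, edgeR with TMM or RLE factors called 1 in the average, 20 added before the log gave 2 in brainstem and a filter at 100 gave 1 there. The libraries of a region alone gave 1 in olfactory bulb and 4 in hippocampus. Over all genes olfactory bulb alone gave 76, against 11 in the main fit, and no alternative gave more than 638 in hippocampus. Among control regions, 4 were called between hippocampus and brainstem, with limma-voom calling 2 and controls alone 1, and 7 between brainstem and cortex, with controls alone calling 4. Over all genes controls alone called 726 and 1638 in these 2 comparisons, against 967 and 1948 in the main fit. With a library left out the counts ran from 0 to 2 in hippocampus, 0 to 3 in brainstem, 0 to 1 in the average, 0 to 2 in the F test, 0 to 1 for hippocampus against cortex, 1 to 4 for hippocampus against brainstem and 3 to 8 for brainstem against cortex. The cause was not tested.

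Same-numbered libraries of the 2 genotypes correlated at -0.115 to 0.320 in their deviations from group means, and those of control regions at -0.196 to 0.323, and no label ties a number to an animal, so the numbers were not taken to pair libraries. All 6 libraries correlated best with their own number in hippocampus across genotypes and between olfactory bulb and hippocampus controls, a hint from the data. The replicate block changed 1 count by more than 1.5 times, to 2 called between hippocampus and cortex controls (Cdkn1c and Mest) in place of 0. Of 4447 alternative values for the 10 genes, 4278 kept their direction and side of the threshold, 53 lost and 71 gained a call, 45 uncalled values changed sign, and 0 called values reversed.

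Counts over all genes also moved. In brainstem 98 genes were called, with 0 in that region alone and 166 in DESeq2; in hippocampus 318, with 212 and 638 as extremes; in cortex 41, with 22 and 142; in olfactory bulb 11, with 11 and 76; in the F test 7, with 0 and 86; and between hippocampus and cortex controls 152, with 43 and 306. With a library left out they ran from 90 to 467 in hippocampus, 17 to 892 in brainstem, 3 to 27 in olfactory bulb, 16 to 65 in cortex, 539 to 1293 in the average, 0 to 89 in the F test, 39 to 294 between hippocampus and cortex, and 1215 to 2370 between brainstem and cortex. Depth limits Dlk1 and Cdkn1c most: Dlk1 had 3 reads or fewer in 1 cortical control and 1 brainstem library, and Cdkn1c 1 read in 1 olfactory bulb control. The cortical controls had 3 to 5 reads of Dlk1. Brainstem knockout library 3, the shallowest, also had few reads of other genes. It had 8 of Grb10, 13 of Mest, 16 of Cdkn1c, 21 of Ndn and 26 each of Peg10 and Plagl1.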
